A study of Mus musculus with 6 samples.

Results

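Transcripts of 7 genes that mast cells are known for, the protease genes Cpa3, Cma1, Mcpt4 and Tpsb2, the receptor genes Kit and Ms4a2 and the histamine enzyme gene Hdc, were measured in primary tumors grown in wild-type (WT) mice and in mice without Tgm2. The members were taken by symbol from a list of mast cell proteases and receptors. All 7 were present among the 20076 genes of the deposited table, and all 7 passed the filter on low values that left 19667 genes for testing.

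Bulk poly(A) RNA was sequenced from tumors that grew from ID8 Trp53-/- Brca1-/- cells, a mouse ovarian surface epithelial cancer line without functional Trp53 and Brca1, placed by injection below the ovarian bursa. The 3 tumors of the WT group came from hosts with intact Tgm2, the gene of transglutaminase 2 (TG2), an enzyme that crosslinks proteins, and the 3 tumors of the knockout group came from hosts that lack Tgm2. Both groups received the same cancer cells, which carry Tgm2, and all tumors were collected 6 weeks after injection, so the knockout concerns the tumor microenvironment (TME) and not the cancer cells. The samples are labelled as cancer cells, but they are whole tumors, and in bulk RNA fewer cells of a type and less RNA per cell cannot be told apart. The ovarian and epithelial markers Wt1, Krt8, Krt18, Krt19 and Msln were abundant in every tumor, with Wt1 between 13131 and 20641 normalized counts. The epithelial markers Krt7 and Epcam were uneven, both highest in WT tumor 3. Krt7 ranged from 342 in knockout tumor 3 to 3666, and Epcam from 90.5 in WT tumor 1 to 8047.

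Mast cells are tissue-resident immune cells whose granules hold histamine and proteases bound to heparin. They mature in tissues under stem cell factor, the ligand of the receptor encoded by Kit, and release their granules when IgE on their high-affinity receptor is crosslinked. In mice, the mast cells of connective tissue store carboxypeptidase A3, chymases and tryptases, while those of mucosal surfaces store the chymases encoded by Mcpt1 and Mcpt2. They are known to lie along vessels and in fat, skin and the linings of body cavities.

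The values are normalized counts, that is estimated read counts divided by a size factor for each tumor. In triplets of values, tumors 1, 2 and 3 of a group follow in this order. The totals reached 34801694, 35325875 and 33916288 for the WT group, against 32316613, 35827822 and 37717165 for the knockout group. The steps between low values put 1 read at between 0.944 and 1.08 normalized counts, which corresponds to an estimated 33.4M to 36.9M reads per tumor, so a value of a few normalized counts rests on a few reads. Fold changes were taken on log2(value + 1), where genes with low values show less than their true change, and were tested in the whole table with limma and Benjamini-Hochberg adjustment. A gene was called where its adjusted p was under 0.05 and its log2 fold change beyond 1 in either direction; these are the limits named from here on. With 3 tumors against 3, a two-sided exact permutation test cannot give a p below 0.1. The labels number the tumors of a group as replicates, and the p-values measure only the spread between these 6 tumors, which may be technical in part.

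The genotype labels were checked on Tgm2 first. Tgm2 reached 14978, 12155 and 13180 normalized counts in the WT group, against 5853, 6071 and 8157 in the knockout group. The highest knockout value was below the lowest WT value, with a log2 fold change of -1.02 (SE 0.22, limma adjusted p = 0.391, exact permutation p = 0.1). The remaining Tgm2 transcripts can come from the cancer cells.

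The 4 proteases of connective tissue mast cells had mean levels 2.27 to 2.94 times higher in the knockout tumors, with the highest level of each in knockout tumor 2. Knockout tumor 3 ranked second for each of them, whereas knockout tumor 1 lay close to the WT tumors. No mast cell gene passed the limits, and 0 of the 7 were called in either direction, beside 0.102% of all tested genes called higher and 0% called lower. At an unadjusted p under 0.05, 3 of the 7 (Cpa3, Cma1 and Tpsb2) were higher and 0 were lower, beside 3.40% and 2.38% of all tested genes. Groups without overlap were found for 1 of the 7, Cpa3, which was higher in every knockout tumor, and 0 were lower in every knockout tumor, beside 5.18% and 5.33% of all tested genes. The log2 fold change was above 0 for 6 of the 7, with a median of 1.01 against -0.03 over all tested genes. In a fit that also held the adipocyte marker level of each tumor, this median was -0.44, and only Hdc was above 0. The limma adjusted p of the 7 genes in that fit lay between 0.747 and 0.998, so it does not resolve their signs. Without knockout tumor 2 the median was 0.54.

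**Figure D1:**
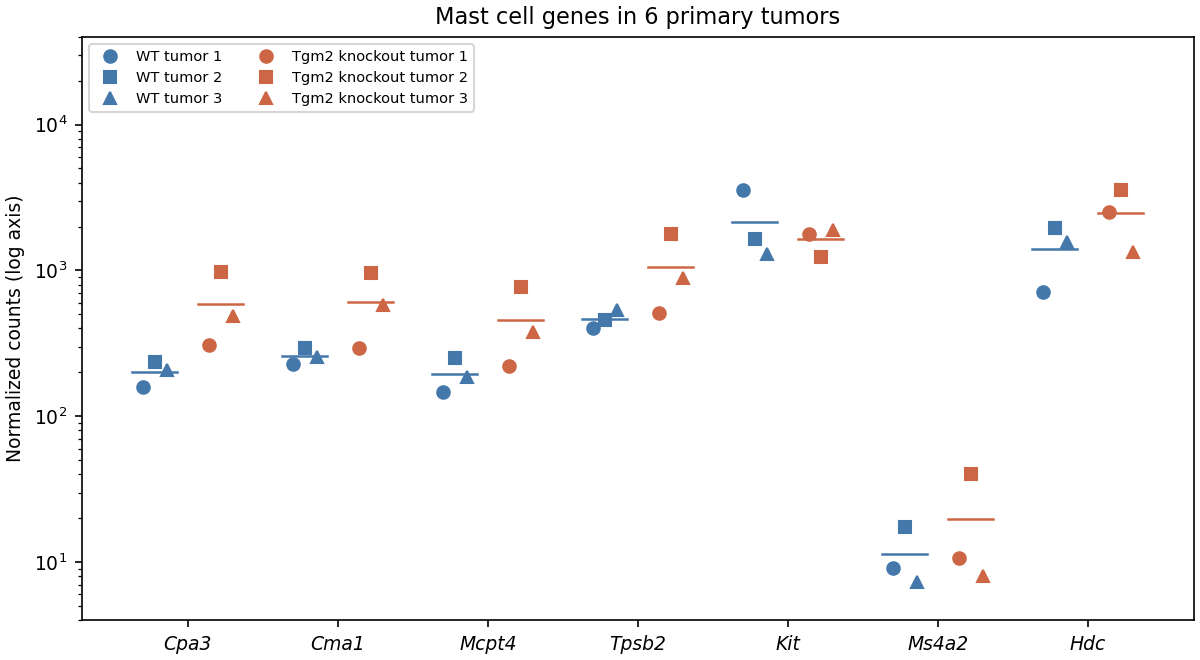
Normalized counts of the 7 mast cell genes (log axis) in each of 6 tumors, with WT tumors in blue, Tgm2 knockout tumors in orange, 1 symbol per tumor number and a line at each group mean of 3 tumors. Knockout tumor 2 (orange square) is the highest point for 6 of the 7 genes, and Kit is the exception, with its highest value of 3547 in WT tumor 1.

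Cpa3 (ENSMUSG00000001865) encodes carboxypeptidase A3, an enzyme that trims amino acids from the ends of peptides and is stored in mast cell granules. Its position in GRCm38, the build of all positions given, is chromosome 3, minus strand, 20215620 to 20242181. Cpa3 reached 158, 235 and 209 normalized counts in the WT group, against 309, 975 and 488 in the knockout group. All 3 knockout tumors exceeded all 3 WT tumors, and knockout tumor 2 held 2.00 times the level of the next highest tumor. The group means were 201 ± 39.3 and 591 ± 345 (SD, n = 3 each), a ratio of 2.94. The log2 fold change of Cpa3 was 1.41 (SE 0.43, 95% interval 0.42 to 2.41, limma adjusted p = 0.689, exact permutation p = 0.1).

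Cma1 (ENSMUSG00000022225) encodes a chymase, a serine protease of connective tissue mast cells, and lies on chromosome 14 from 55941451 to 55944675 on the minus strand. Cma1 reached 229, 294 and 256 normalized counts in the WT group, against 293, 964 and 576 in the knockout group. Knockout tumors 2 and 3 lay above all WT tumors, but knockout tumor 1 fell just under WT tumor 2, so the groups overlapped by this pair. The group means were 259 ± 32.6 and 611 ± 337 (SD, n = 3 each), with a log2 fold change of 1.08 (SE 0.43, 95% interval 0.10 to 2.05, limma adjusted p = 0.819, exact permutation p = 0.2).

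Mcpt4 (ENSMUSG00000061068), the gene of the main chymotrypsin-like protease of connective tissue mast cells, lies in the same cluster on chromosome 14, from 56059629 to 56062313 on the minus strand. Mcpt4 reached 147, 249 and 187 normalized counts in the WT group, against 220, 767 and 379 in the knockout group. The order of the tumors was that of Cma1 at its upper end, with knockout tumor 2 highest, knockout tumor 3 next and WT tumor 2 after it. The group means were 194 ± 51.5 and 455 ± 281 (SD, n = 3 each), with a log2 fold change of 1.07 (SE 0.47, 95% interval -0.01 to 2.15, limma adjusted p = 0.872, exact permutation p = 0.2).

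Tpsb2 (ENSMUSG00000033825) encodes a tryptase, a granule protease that acts as a ring of subunits held together by heparin, and lies on chromosome 17 from 25366305 to 25369098 on the plus strand. Tpsb2 reached 405, 459 and 533 normalized counts in the WT group, against 509, 1773 and 894 in the knockout group. Knockout tumor 1 fell between WT tumors 2 and 3, and the other knockout tumors lay above all WT tumors. The group means were 465 ± 64.2 and 1059 ± 648 (SD, n = 3 each), with a log2 fold change of 1.01 (SE 0.42, 95% interval 0.05 to 1.97, limma adjusted p = 0.827, exact permutation p = 0.2).

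The size of these differences depended on single knockout tumors. Without knockout tumor 1, the log2 fold changes of Cpa3, Cma1, Mcpt4 and Tpsb2 were 1.80, 1.53, 1.5 and 1.44, and the groups did not overlap for 4 of the 7 genes. Without knockout tumor 2 they were 0.97, 0.67, 0.60 and 0.54, and without knockout tumor 3 they were 1.47, 1.04, 1.11 and 1.04. Summed over the 4 proteases, the tumors held 939, 1237 and 1184 normalized counts in the WT group and 1330, 4479 and 2337 in the knockout group, which is 27.0, 35.0 and 34.9 against 41.2, 125 and 62.0 per 1M normalized counts. The lowest knockout tumor thus lay above the highest WT tumor in the sum, at 1330 against 1237, although only Cpa3 did so by itself. Tpsb2, whose groups overlapped, was the most abundant of the 4. Of all tested genes taken singly, 5.18% were higher without overlap, and no such share was computed for sums.

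Cma1, Mcpt4 and Tpsb2 kept closer proportions to Cpa3 from tumor to tumor than the other genes compared did. While Cpa3 itself spanned from 158 to 975 normalized counts, the ratio of Cma1 to Cpa3 stayed between 0.949 and 1.45, that of Mcpt4 to Cpa3 between 0.714 and 1.06, and that of Tpsb2 to Cpa3 between 1.65 and 2.56. For all 3 ratios the highest knockout tumor lay below the lowest WT tumor, with means of 1.31 ± 0.125 and 1.04 ± 0.123 for Cma1, 0.963 ± 0.0871 and 0.759 ± 0.0393 for Mcpt4 and 2.36 ± 0.349 and 1.77 ± 0.102 for Tpsb2 (SD, n = 3 each; exact permutation p = 0.1 for each). The ratios of Kit and of Tpsab1 to Cpa3 separated the groups in the same direction (exact permutation p = 0.1 for each). The groups overlapped for the ratios of Ms4a2, Hdc, Mcpt1, Mcpt2, Fcer1a, Slc18a2 and Il1rl1 to Cpa3. The share of all genes that separate the groups in such a ratio was not computed. These ratios share Cpa3 as denominator and so are not separate observations. The log2 fold change of Cpa3, 1.41, was above those of Cma1, Mcpt4 and Tpsb2, at 1.08, 1.07 and 1.01. Ratios of these genes to Cpa3 thus lean lower in the knockout group by the choice of denominator, and their direction is not read as a result. They were computed after the values had been seen. The ratio of Hdc to Cpa3 ranged from 2.72 to 8.25 and that of Kit to Cpa3 from 1.26 to 22.5, a span of 17.8 times against 1.49 to 1.56 times for the 3 proteases. The other proteases varied more against Cpa3, with a span of 4.72 times for Tpsab1, 4.5 times for Mcpt2 and 6.49 times for Mcpt1.

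**Figure D2:**
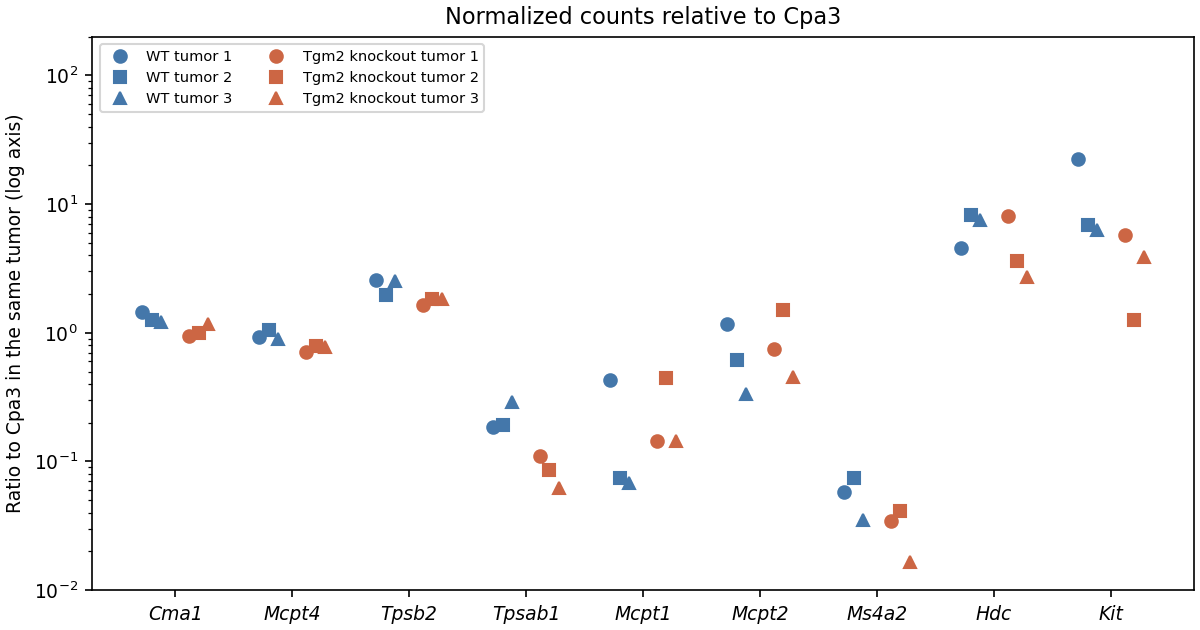
Normalized counts of 9 mast cell related genes divided by those of Cpa3 in the same tumor (log axis), with WT tumors in blue and Tgm2 knockout tumors in orange, 1 symbol per tumor number. The points of Cma1, Mcpt4 and Tpsb2 lie within 1.49 to 1.56 times of each other, whereas those of Kit spread over 17.8 times.

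The promoter stretches of the chymases, of carboxypeptidase A3 and of the IgE receptor chain are shown because the transcription factors GATA1 and GATA2, which are known to act in mast cells, bind short GATA motifs. Stretches from 250 bases before to 50 bases after the start of transcription, taken from RefSeq on GRCm38.p6, were found for 6 of the 7 genes and searched on both strands for AGATAA or AGATAG or TGATAA or TGATAG. These 4 hexamers share their central letters, and each match was counted at its own place. At least 1 match was present in 5 of the 6 stretches (Cpa3, Cma1, Mcpt4, Ms4a2 and Hdc, but not Kit), beside 29.6% of 32544 distinct promoter stretches of the same length. Kit has 2 listed promoters, of which only the first was searched. A match is a run of letters and does not show that a factor binds there. The E-box letters CACGTG or CATGTG, bound by MITF among others, were in 0 of the 6 stretches, beside 20.5% of all stretches. The sequences are written 5′ to 3′ along the gene, with GATA motif letters, on either strand, in capitals. In Cpa3 (chr3:20242132-20242431, minus strand) the motif begins 46 bases upstream of the start, in Cma1 (chr14:55944626-55944925, minus strand) 79 bases and in Mcpt4 (chr14:56062261-56062560, minus strand) 103 bases. The Ms4a2 stretch (chr19:11623670-11623969, minus strand) holds 3 motifs, at 224, 37 and 11 bases, and 7.61% of all stretches hold more than 1.
Cpa3: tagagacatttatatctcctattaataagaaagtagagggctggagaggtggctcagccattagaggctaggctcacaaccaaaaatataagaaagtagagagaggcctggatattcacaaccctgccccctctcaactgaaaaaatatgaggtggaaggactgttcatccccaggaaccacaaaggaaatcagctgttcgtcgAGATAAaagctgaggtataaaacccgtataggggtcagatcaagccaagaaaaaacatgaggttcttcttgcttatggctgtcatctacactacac
Cma1: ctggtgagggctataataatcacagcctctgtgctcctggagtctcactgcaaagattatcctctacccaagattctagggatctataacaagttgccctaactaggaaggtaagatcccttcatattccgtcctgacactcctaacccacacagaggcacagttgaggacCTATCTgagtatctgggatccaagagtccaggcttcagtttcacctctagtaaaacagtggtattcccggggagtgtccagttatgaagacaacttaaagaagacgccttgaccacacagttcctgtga
Mcpt4: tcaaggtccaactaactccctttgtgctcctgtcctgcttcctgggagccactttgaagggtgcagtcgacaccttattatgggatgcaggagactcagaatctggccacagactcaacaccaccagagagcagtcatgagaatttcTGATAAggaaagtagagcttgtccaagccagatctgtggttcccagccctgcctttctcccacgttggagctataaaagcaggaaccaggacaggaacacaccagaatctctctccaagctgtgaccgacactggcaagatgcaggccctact
Ms4a2: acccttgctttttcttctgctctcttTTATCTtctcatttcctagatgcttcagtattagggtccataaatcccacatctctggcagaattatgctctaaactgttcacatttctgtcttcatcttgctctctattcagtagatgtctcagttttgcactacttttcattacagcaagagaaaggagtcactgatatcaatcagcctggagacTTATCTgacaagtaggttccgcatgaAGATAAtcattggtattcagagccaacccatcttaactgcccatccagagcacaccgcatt

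Of the 2 receptor genes, Kit did not share the tumor order of the proteases. Kit (ENSMUSG00000005672), on chromosome 5 from 75574916 to 75656722 on the plus strand, encodes the receptor of stem cell factor, which mast cells need for survival. Kit reached 3547, 1633 and 1306 normalized counts in the WT group, against 1771, 1230 and 1901 in the knockout group. Its highest value was in WT tumor 1 and its lowest in knockout tumor 2, the tumor with the most protease transcripts. The group means were 2162 ± 1210 and 1634 ± 356 (SD, n = 3 each), with a log2 fold change of -0.29 (SE 0.37, 95% interval -1.14 to 0.56, limma adjusted p = 0.928, exact permutation p = 0.8). Without WT tumor 1, the log2 fold change of Kit was 0.14.

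Kit is also expressed by oocytes, interstitial cells of Cajal, melanocytes and hematopoietic progenitors, and markers of these cells were read in the same tumors. In a summed list, the gene named as leading is the one that gave the most normalized counts over the 6 tumors, with no correction for length. Of 9 oocyte genes, 8 were in the table, and their summed normalized counts were 129, 42.9 and 72.2 in the WT group and 2060, 116 and 130 in the knockout group. The leading gene was Zp2, a gene of the egg coat, with 596 normalized counts in knockout tumor 1 and 0 in knockout tumors 2 and 3 and in WT tumor 2. Oosp1, an oocyte-secreted protein gene of the same list, was instead high in all knockout tumors, with 8.62, 0 and 7.49 normalized counts in the WT group, against 102, 84.6 and 67.3 in the knockout group. The 3 genes listed for interstitial cells of Cajal summed to 3878, 4351 and 2397 in the WT group and 7371, 2195 and 3587 in the knockout group, led by the chloride channel gene Ano1, although in knockout tumor 1 Thbs4 gave more counts, 4087 against 3122. The 3 melanocyte genes in the table, led by Pmel, summed to between 18.8 and 109. The 5 progenitor genes, led by Cd34, summed to 3844, 4193 and 4133 in the WT group and 5486, 4873 and 4348 in the knockout group, where 2 of the 5 (Cd34 and Flt3) were higher without overlap and 1 (Flt3) had an unadjusted p under 0.05, beside 5.18% and 3.40% of all tested genes. Oocyte and Cajal cell sums were highest in knockout tumor 1, while Kit was highest in WT tumor 1. The part of these cells in the level of Kit was not tested.

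Ms4a2 (ENSMUSG00000024680), on chromosome 19 from 11615523 to 11623719 on the minus strand, encodes the beta chain of the high-affinity IgE receptor, a signal amplifier found on mast cells and basophils. Ms4a2 reached 9.15, 17.4 and 7.30 normalized counts in the WT group, against 10.6, 40.3 and 8.03 in the knockout group. These values rest on an estimated 7.18 to 41.1 reads. Knockout tumor 2 held 2.32 times the next highest level, that of WT tumor 2, and the other knockout tumors lay among the WT tumors. The log2 fold change of Ms4a2 was 0.49 (SE 0.79, 95% interval -1.32 to 2.31, limma adjusted p = 0.941, exact permutation p = 0.6), and it was -0.18 without knockout tumor 2. In the fit that also held the adipocyte marker level of each tumor, it was -1.42 (limma adjusted p = 0.747).

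Hdc (ENSMUSG00000027360), on chromosome 2 from 126593667 to 126619299 on the minus strand, encodes histidine decarboxylase, the enzyme that makes histamine. Hdc reached 717, 1940 and 1573 normalized counts in the WT group, against 2509, 3535 and 1330 in the knockout group. Knockout tumors 2 and 1 were the highest, while knockout tumor 3, which ranked second for all 4 proteases, lay below WT tumors 2 and 3. The group means were 1410 ± 628 and 2458 ± 1104 (SD, n = 3 each), with a log2 fold change of 0.81 (SE 0.45, 95% interval -0.22 to 1.83, limma adjusted p = 0.889, exact permutation p = 0.3). The log2 fold change of Hdc was 0.38 without WT tumor 1, 0.49 without knockout tumor 2 and 1.2 without knockout tumor 3, and it was 0.37 in a fit that also held the adipocyte marker level of each tumor.

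Levels of different genes can be compared only per length. Divided by the length of the longest coding transcript in kilobases, the order of the WT means was Hdc with 589 normalized counts per kilobase, Kit with 413, Tpsb2 with 361, Cma1 with 238, Mcpt4 with 176, Cpa3 with 138 and Ms4a2 with 4.72. In the knockout tumors the order was Hdc with 1028, Tpsb2 with 821, Cma1 with 560, Mcpt4 with 411, Cpa3 with 408, Kit with 312 and Ms4a2 with 8.22. Mcpt4 and Cpa3 were close in the knockout tumors, whose values per kilobase were 199, 692 and 342 for Mcpt4 and 213, 673 and 337 for Cpa3. Read within tumors, the order Tpsb2 over Cma1 over Mcpt4 held in 6 of 6 tumors and Mcpt4 over Cpa3 in 5 of 6, while the places of Hdc and Kit differed between tumors. Ms4a2 stood far below the other members in every tumor, with at most 16.8 normalized counts per kilobase.

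Among the other mast cell proteases, the mucosal chymases Mcpt1 and Mcpt2 stood out in knockout tumor 2. Of 11 listed proteases, 10 were tested, 0 passed the limits, 5 were higher at an unadjusted p under 0.05 (3.40% of all tested genes) and 3 were higher without overlap (Cpa3, Mcpt2 and Ctsg; 5.18% of all tested genes), with a median log2 fold change of 1.07, and 9 of the 10 were highest in knockout tumor 2, as were 12.5% of all tested genes. Ctsg is in both counts, but it was at 0 in every WT tumor and passed the filter on low values only through the knockout tumors. Its separation of the groups was thus fixed by the filter and is not read as a difference. Mcpt1 reached 67.9, 17.7 and 14.2 normalized counts in the WT group, against 44.4, 431 and 70.5 in the knockout group. Mcpt2, in the same cluster on chromosome 14, reached 185, 143 and 70.1 in the WT group, against 232, 1473 and 223 in the knockout group. Knockout tumor 2 held 6.11 times the next highest level of Mcpt1 and 6.36 times that of Mcpt2, against 1.67 to 2.02 times for the 4 listed proteases. The groups did not overlap for Mcpt2, with a log2 fold change of 1.78 (SE 0.74, limma adjusted p = 0.827), but knockout tumors 1 and 3, at 232 and 223, lay close to WT tumor 1, at 185.

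The remaining proteases were low. Tpsab1, a second tryptase gene, reached 29.4, 45.3 and 60.9 normalized counts in the WT group, against 34.0, 84.1 and 30.2 in the knockout group, a log2 fold change of 0.03 (SE 0.61, limma adjusted p = 0.996). In contrast to Tpsb2, its knockout tumor 3 lay among the lower tumors. Ctsg, the gene of cathepsin G, which neutrophil precursors also express, was listed at 0 throughout the WT group, against 8.62, 3.60 and 1.80 normalized counts in the knockout group. Cma2 and Tpsg1 did not exceed 8.21 and 5.92 normalized counts in any tumor.

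Some of these genes share stretches of sequence with others, and reads from such stretches could be split between them. Only the longest coding transcript of each gene was searched. Of the 31-base words in that of Mcpt4, 12.2% also occur in other genes, mostly in Cma2, and of those in that of Cma1, 10.6% occur in Gm48934. The share was 5.0% for Ms4a2, 6.71% for Mcpt1, 5.14% for Mcpt2, 0.715% for Tpsb2 and 59.4% for Cma2, whose values are therefore uncertain. The longest coding transcripts of Cpa3, Kit and Hdc shared 0 such words with other genes.

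**Figure D3:**
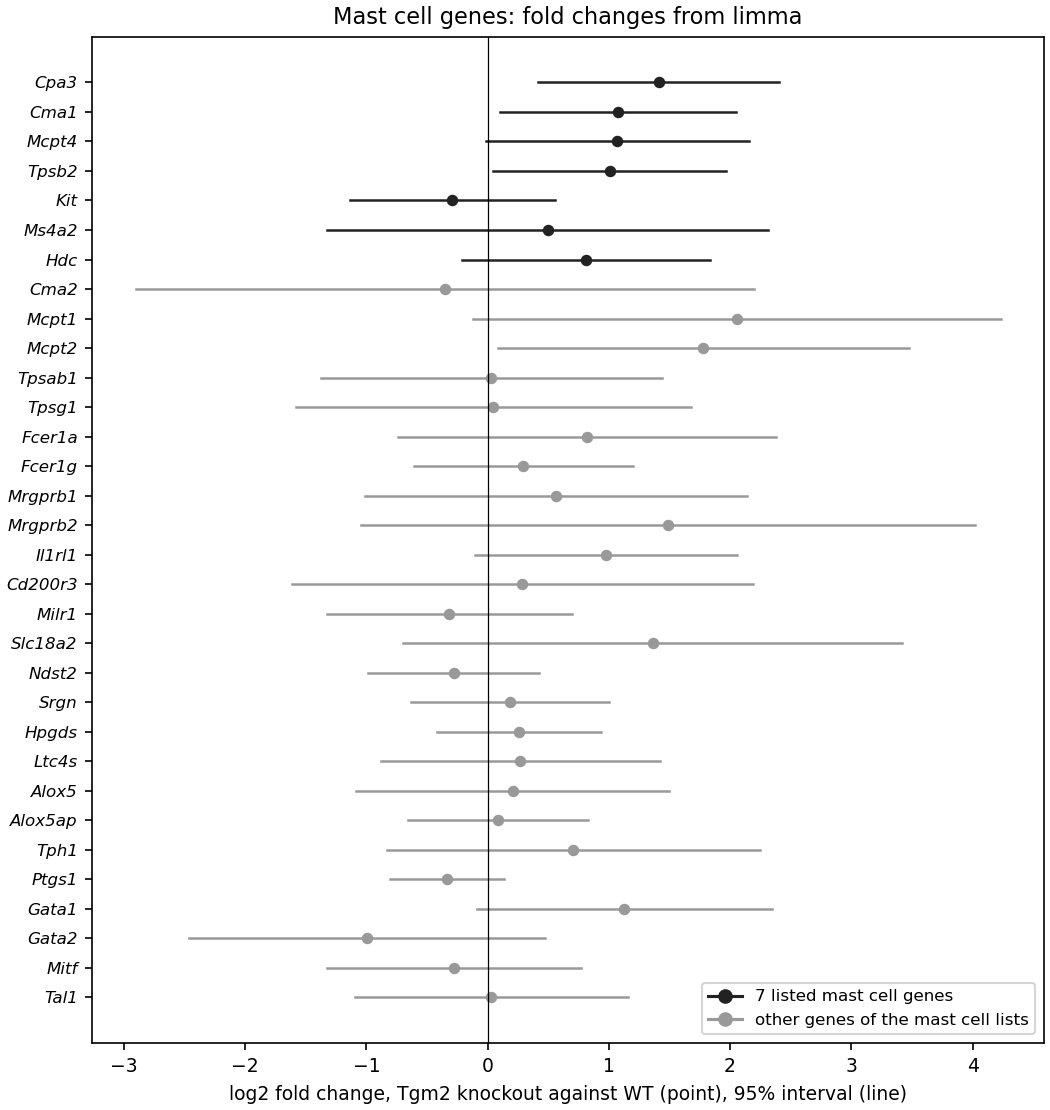
log2 fold changes of Tgm2 knockout against WT tumors (points, 3 tumors per group) with 95% intervals from limma (lines), for the 7 mast cell genes in black and other genes of the mast cell lists in grey; Ctsg, listed at 0 in all WT tumors, is left out. The intervals of Cpa3, Cma1, Tpsb2 and Mcpt2 lie above 0, and no gene shown passed the limits after adjustment.

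Among 9 receptors of mast cells, 0 passed the limits, 0 were higher at an unadjusted p under 0.05 and 0 were higher without overlap, beside 0.102%, 3.40% and 5.18% of all tested genes. The median log2 fold change was 0.49, and 8 of the 9 were highest in knockout tumor 2, beside 12.5% of all tested genes. Fcer1a, the IgE-binding chain of the same receptor as Ms4a2, reached 25, 46.2 and 53.8 normalized counts in the WT group, against 36.1, 166 and 58.5 in the knockout group. As with Ms4a2, knockout tumor 2 stood apart and the rest overlapped, with a log2 fold change of 0.82 (SE 0.68, limma adjusted p = 0.9). Fcer1g, the chain that macrophages and other Fc receptor bearing cells share, was far more abundant, with 3284, 2512 and 1604 in the WT group and 1636, 4296 and 3476 in the knockout group. Il1rl1, which encodes the receptor of interleukin 33 and is also found on group 2 innate lymphoid cells and regulatory T cells, reached 116, 94.3 and 99.9 in the WT group, against 108, 320 and 243 in the knockout group. Knockout tumors 2 and 3 were above the others, as for the proteases, and knockout tumor 1 was not (log2 fold change 0.97, SE 0.47, limma adjusted p = 0.881). Mrgprb2, the receptor through which peptides and drugs release mast cell granules, ranged from 0 to 27.5 and its relative Mrgprb1 from 11.1 to 54.2, Cd200r3, shared with basophils, from 8.27 to 60.5, and Milr1, an inhibitory receptor, from 109 to 308.

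Genes for making and storing mediators overlapped between the groups in 10 of 10 cases. Of these, 0 passed the limits, 0 were higher at an unadjusted p under 0.05 and 0 were higher without overlap, beside 0.102%, 3.40% and 5.18% of all tested genes, with a median log2 fold change of 0.23. Slc18a2, which encodes the transporter that loads histamine and serotonin into granules, reached 133, 95.8 and 120 normalized counts in the WT group, against 1591, 148 and 111 in the knockout group. Its high value was in knockout tumor 1, which also had the highest sum of the oocyte genes and was the lowest knockout tumor for the proteases. Ltc4s, which makes leukotriene C4, reached 213, 263 and 118 in the WT group, against 122, 380 and 250 in the knockout group. Hpgds, a prostaglandin D2 synthase, ranged from 328 to 596, Srgn, the core protein of granule proteoglycans and also abundant in other leukocytes, from 1393 to 3329, Alox5 from 36.8 to 112, Alox5ap from 735 to 1852 and Tph1, a serotonin enzyme, from 11.5 to 39.9. Each of these 6 was highest in knockout tumor 2, whereas Ptgs1 and Ndst2, a cyclooxygenase and a heparin-modifying enzyme, were highest in WT tumors 1 and 3.

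The transcription factor genes did not share the tumor order of the proteases. Gata2 reached 487, 554 and 2462 normalized counts in the WT group, against 815, 279 and 367 in the knockout group, a log2 fold change of -1.0 (SE 0.64, limma adjusted p = 0.891). Its lowest value was in knockout tumor 2 and its highest in WT tumor 3, which was also highest for Mitf, with 613. Gata1, known from red cell precursors, mast cells and eosinophils, reached 85.1, 331 and 140 in the WT group, against 343, 240 and 506 in the knockout group (log2 fold change 1.13, SE 0.53, limma adjusted p = 0.881). Of the 4 factors, which include Tal1 at 46.9 to 98.8, 0 passed the limits, 0 were higher at an unadjusted p under 0.05 and 0 were highest in knockout tumor 2, beside 0.102%, 3.40% and 12.5% of all tested genes.

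Ligands that feed or draw mast cells were measured in 6 of 8 listed genes, of which 0 passed the limits and 0 were higher at an unadjusted p under 0.05, beside 0.102% and 3.40% of all tested genes. Kitl, the gene of stem cell factor and the most abundant of them, reached 5240, 6672 and 4726 normalized counts in the WT group, against 6359, 6681 and 8194 in the knockout group. Its groups overlapped, with a log2 fold change of 0.36 (SE 0.21, limma adjusted p = 0.891). Il33 reached 1098, 798 and 799 in the WT group, against 684, 1496 and 979 in the knockout group (log2 fold change 0.17, SE 0.31, limma adjusted p = 0.948).

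The signaling genes below the IgE receptor, which other leukocytes also use, had log2 fold changes above 0 in 13 of 13, with a median of 0.35, but 0 passed the limits and 0 were higher without overlap, beside 0.102% and 5.18% of all tested genes. At an unadjusted p under 0.05, 2 of the 13 were higher, the kinase gene Syk and the phospholipase gene Plcg2, beside 3.40% of all tested genes. Syk reached 1105, 537 and 677 normalized counts in the WT group, against 1095, 1317 and 1550 in the knockout group. Unlike the proteases, it was highest in knockout tumor 3, as was Plcg2, and the sum of the general leukocyte genes was also highest there.

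Basophils share the IgE receptor and Hdc with mast cells but lack Cma1 and Mcpt4. Mcpt8, their own protease, reached 0, 2.13 and 0 normalized counts in the WT group, against 1.93, 7.04 and 3.03 in the knockout group, that is a few reads in any tumor. Prss34, a second basophil protease, reached 15.1, 11.4 and 16.2 in the WT group, against 20.8, 52.0 and 24.9 in the knockout group. It was higher without overlap, as 1 of 5 basophil genes (5.18% of all tested genes), and 0 of the 5 passed the limits (0.102% of all tested genes) or were higher at an unadjusted p under 0.05 (3.40%). The summed basophil genes, dominated by Il3ra, a receptor chain that many leukocytes carry, were 1088, 829 and 695 in the WT group and 603, 1102 and 864 in the knockout group.

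Markers of white fat were highest in the same 2 tumors as the proteases. Summed over 10 adipocyte genes, all of which were tested, the normalized counts were 43243, 55686 and 32637 in the WT group and 46466, 165398 and 97273 in the knockout group. Knockout tumor 2 was highest and knockout tumor 3 second, and knockout tumor 1 lay within the WT tumors, as for Cma1, Mcpt4 and Tpsb2. Of the 10 genes, 1 passed the limits (Lep, the gene of leptin), 9 were higher at an unadjusted p under 0.05, 5 were higher without overlap and 9 were highest in knockout tumor 2, beside 0.102%, 3.40%, 5.18% and 12.5% of all tested genes, with a median log2 fold change of 1.80. The leading gene was Lpl, a lipase that other cells also make, with 18297 to 41918 normalized counts, although Cfd gave more in knockout tumor 2, with 62686, and none of the 10 was at 0. Adipoq, the adiponectin gene, reached 932, 2066 and 786 in the WT group, against 1691, 9593 and 5412 in the knockout group.

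Protease levels were also taken relative to 1000 summed counts of these adipocyte genes, a ratio chosen after the values had been seen. Cma1 stood at 6.13 ± 1.47 in WT tumors and 6.02 ± 0.252 in knockout tumors, Mcpt4 at 4.54 ± 1.16 and 4.42 ± 0.461, Tpsb2 at 11.3 ± 4.38 and 10.3 ± 0.956 and Cpa3 at 4.76 ± 1.45 and 5.85 ± 0.812 (SD, n = 3 each; exact permutation p of 0.3 for Cpa3 and of 0.9 or 1 for the others). The groups overlapped for all 4, including Cpa3, whose undivided values did not overlap. Relative to Adipoq alone, the mean of each protease was lower in the knockout tumors, for example 0.183 ± 0.0770 and 0.125 ± 0.0503 for Cpa3 (exact permutation p = 0.3). With the mean log2 value of the adipocyte genes as a covariate in limma, the log2 fold changes of Cpa3, Cma1, Mcpt4 and Tpsb2 were -0.068, -0.49, -0.64 and -0.44. In the same order, their limma adjusted p were 0.978, 0.777, 0.748 and 0.823. Of the 10 adipocyte genes, 9 were themselves higher in the knockout tumors at an unadjusted p under 0.05, so genotype and fat marker level are hard to tell apart here. This fit takes the fat markers as given, with 6 tumors, and it was not tested what part fat tissue had in the protease levels.

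The sums of the basophil genes ordered the knockout tumors as the proteases did, 2 above 3 above 1. The sums of the 9 mast cell receptors did so too, with 3712, 6503 and 5919 normalized counts, but WT tumor 1 was the highest of all 6, with 7278, 4614 and 3298 in the WT group, and most of the counts came from Fcer1g and Kit. A further 5 marker lists did not, although for the neutrophil genes this rests on nearly equal sums in knockout tumors 1 and 3. The 8 plasma cell genes, led by Jchain, which joins antibody chains, summed to 15741, 17690 and 12873 in the WT group and 59558, 82167 and 86368 in the knockout group, and knockout tumor 1 was well above all WT tumors. Of the 8, 2 passed the limits (Jchain and Mzb1), 5 were higher at an unadjusted p under 0.05 and 7 were higher without overlap, beside 0.102%, 3.40% and 5.18% of all tested genes. The 7 general leukocyte genes, led by Laptm5, summed to 29082, 19585 and 15435 in the WT group and 20692, 36995 and 41001 in the knockout group, with 0 past the limits, beside 0.102% of all tested genes. Of the 7, 1 (Cd52) was higher at an unadjusted p under 0.05 and without overlap, beside 3.40% and 5.18% of all tested genes. Their median log2 fold change was 0.54, with 7 of 7 above 0. The 8 neutrophil genes, led by S100a9, summed to 181, 441 and 211 in the WT group and 113, 835 and 110 in the knockout group, high in knockout tumor 2 and low in both other knockout tumors. The 6 fibroblast genes, led by Col1a1, summed to 186422, 104174 and 62931 and to 154918, 156829 and 165729, and the 7 epithelial and ovarian surface genes, led by Wt1, to 64255, 73798 and 73104 and to 52732, 54303 and 61256. Of the 6 fibroblast genes, 2 were higher at an unadjusted p under 0.05, beside 3.40% of all tested genes. Of the 7 epithelial and ovarian surface genes, 2 (Krt8 and Krt19) were lower without overlap, beside 5.33% of all tested genes. In both lists 0 passed the limits, beside 0.102% higher and 0% lower of all tested genes. The part of these cells in the protease levels was not tested.

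**Figure D4:**
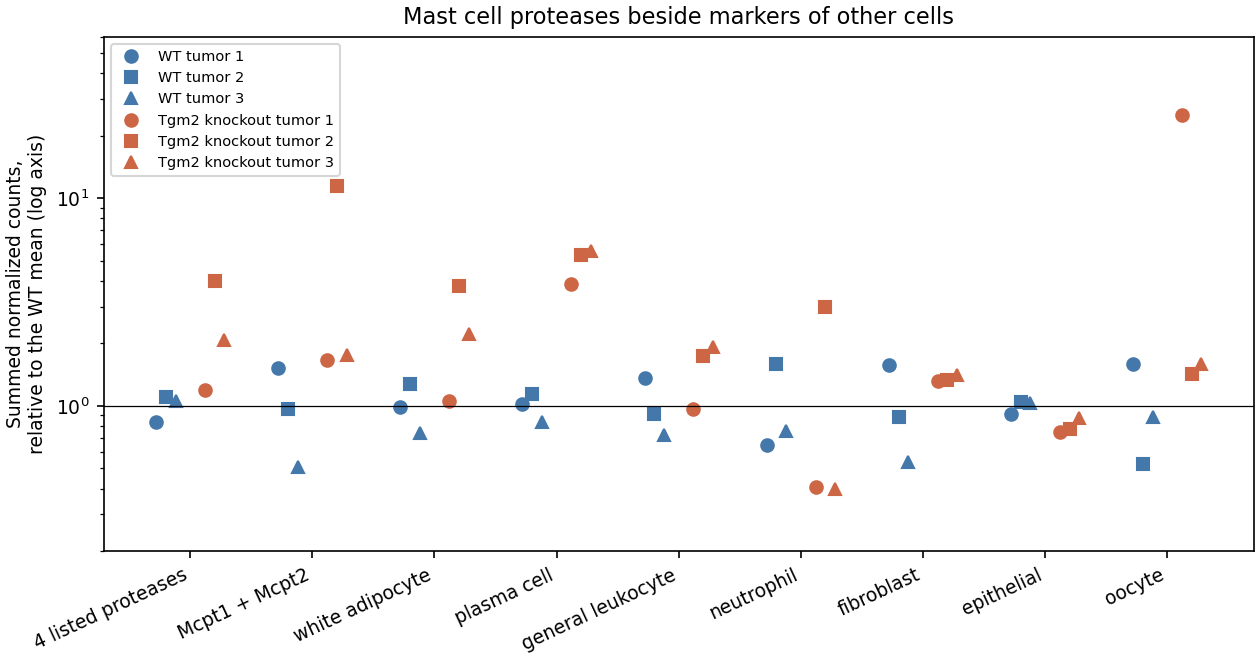
Summed normalized counts of the 4 listed proteases, of Mcpt1 with Mcpt2, and of marker lists of other cells, each divided by its mean over the 3 WT tumors (log axis, line at 1), with WT tumors in blue, Tgm2 knockout tumors in orange and 1 symbol per tumor number. The 4 proteases and the white adipocyte genes share the order of the knockout tumors (4479, 2337 and 1330 normalized counts against 165398, 97273 and 46466 in knockout tumors 2, 3 and 1), and the oocyte genes stand out in knockout tumor 1, with 2060.

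The genes whose pattern over the 6 tumors was most like the mean of the 7 mast cell genes were listed as a description, among 14086 genes with a mean of at least 50 normalized counts. The 10 most alike were Mmd, Igkv16-104, G0s2, Fmo5, Apoc1, Pcx, Fabp4, Atp6v1d, Wfdc21 and Ffar2, with Pearson's r from 0.973 to 0.992 and Spearman's rho from 0.829 to 1. All 10 were highest in knockout tumor 2, and without the tumors farthest from the median, knockout tumor 2 and WT tumor 3, r was between 0.808 and 0.990. The mean they were matched to was 1.29 in knockout tumor 2, with 0.21 in knockout tumor 3 as the next highest. The peak in knockout tumor 2 thus follows from how the genes were picked, and the second r is of the same picked genes. WT tumor 1, at -0.592, was nearly as far as WT tumor 3, at -0.596. Fabp4, which encodes the fatty acid carrier of adipocytes and is 1 of the listed adipocyte genes, ranged from 2987 normalized counts in WT tumor 3 to 28003 in knockout tumor 2. G0s2, an inhibitor of fat breakdown, ranged from 247 in WT tumor 3 to 1364 in knockout tumor 2. Each of the 7 members had the same weight in the mean that was matched, and 4 of them are the proteases.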

How the data were processed

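Total RNA from 6 primary tumors (3 WT, 3 Tgm2 knockout hosts) was enriched for poly(A) RNA and sequenced. The submitters' processing notes name kallisto 0.46.2 and GRCm38; the authors summed transcripts to genes, removed low genes and scaled with DESeq2 size factors. The deposited unit is a signal, estimated counts divided by size factors, although the table is named for TPM. Whole reads were looked for only in genes with 1 transcript, where 94.9% to 99.1% of low values lay within 0.1 reads of a whole number. Because the deposited values are normalized and not whole, no count model was fitted.

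Columns were matched to tumors by group and replicate number. In R 4.3.3, limma 3.58.1 with a variance trend was fitted to log2(value + 1) of the 19667 genes with at least 1 in at least 3 tumors, all 6 tumors in 1 fit with no covariate, with Benjamini-Hochberg adjustment over all of them, after the fit had been checked on simulated data. Exact permutation tests (scipy 1.17.1, Python 3.11.15) were two-sided. Positions and lengths come from GENCODE M21, to which 94.8% of symbols were matched, and promoter stretches from RefSeq. The members, lists and tests were chosen with earlier results of these data known. The genes named are Tgm2, the 7 members, the members of the mast cell lists, the genes past the limits and the most abundant gene by mean value of each other list and the 10 genes most like the members; Il33, Syk, Plcg2, Mcpt8, Prss34, Oosp1, Adipoq, G0s2, Prg2, Siglecf and histamine gene values were added after being seen, and Krt8, Krt18, Krt19 and Msln were named as checks of the tissue label. Outside this rule, Flt3, Thbs4, Cfd, Krt7, Epcam, Cd52 and Klrg1 were also named, for values or calls that had been seen. Alternatives changed the pseudocount, filter, scaling, weights, variance trend and threshold, added a replicate block or an adipocyte covariate, and dropped single tumors.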

Additional observations from a re-analysis of the deposited data

How the results depend on the processing

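In 17 alternative settings, 0 of the 7 mast cell genes passed the limits. The median log2 fold change of the 7 (1.01) was -0.44 with the adipocyte covariate and ranged from 0.54 to 1.44 when single tumors were left out. With that covariate, Cpa3 was at -0.068, Cma1 at -0.49, Mcpt4 at -0.64, Tpsb2 at -0.44 and Ms4a2 at -1.42 on the log2 scale (limma adjusted p from 0.747 to 0.978). With single tumors left out, Kit ranged from -0.58 to 0.14 (without WT tumor 1) and Ms4a2 from -0.18 (without knockout tumor 2) to 0.92. These settings hold all 7 reversals among 119 values. The count of mast cell genes without overlap (1) ranged from 1 to 4 with single tumors left out, with 4 without knockout tumor 1, 3 without WT tumor 2 and 2 without WT tumor 3 or knockout tumor 3. Over all genes, 20 passed the limits, against 5 with the replicate block, 4 with no variance trend, 0 with the adipocyte covariate, 26 at an adjusted p under 0.1 and 2 to 14 with a tumor left out. Same-numbered tumors correlated at -0.196, 0.284 and -0.307, so the numbers were not taken as pairs, and the replicate block changed the call of 0 mast cell genes. Values of Ms4a2, Cma2, Ctsg and Mcpt8 rest on few reads.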

Other observations

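Eosinophils, which share Gata1 and type 2 cytokines with mast cells, were read from 6 of 8 listed genes, of which 0 passed the limits (0.102% of all tested genes), 2 were higher at an unadjusted p under 0.05 and 1 was higher without overlap, beside 3.40% and 5.18% of all tested genes. Prg2, the major basic protein gene, reached 12.3, 38.4 and 38.6 normalized counts in the WT group, against 183, 305 and 273 in the knockout group. All knockout tumors, knockout tumor 1 included, lay above all WT tumors, with a log2 fold change of 3.18 (SE 0.57, limma adjusted p = 0.216). Ear2, an eosinophil-associated ribonuclease and the leading gene of the list by counts, reached 113, 68.3 and 60.04 in the WT group, against 109, 203 and 368 in the knockout group. Siglecf, a surface receptor of eosinophils, ranged from 6.54 to 42.5 over the 6 tumors, with overlapping groups.

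Histamine receptors and the enzymes that break histamine down were measured in 4 of 6 listed genes, of which 0 passed the limits and 0 had an unadjusted p under 0.05, beside 0.102% past the limits and 3.40% higher and 2.38% lower of all tested genes. Hrh1 reached 321, 428 and 175 normalized counts in the WT group, against 172, 323 and 275 in the knockout group, and Hrh2 ranged from 71.7 to 179. Hnmt, the methylating enzyme, reached 43.0, 98.6 and 144 in the WT group, against 159, 267 and 67.5 in the knockout group. Aoc1, the diamine oxidase gene, reached 30.8, 42.9 and 1607 in the WT group, against 393, 553 and 4.74 in the knockout group, a span that did not follow the groups. Group 2 innate lymphoid cell genes, led by Gata3, had 0 of 5 tested past the limits (0.102% of all tested genes) and a median log2 fold change of 0.36. Of the 5, 1 (Klrg1) was higher without overlap, beside 5.18% of all tested genes.

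Of 5 intestinal epithelial genes, a list added after the values had been seen, the sums were 202, 99.1 and 663 in the WT group and 252, 41.2 and 70.0 in the knockout group. Lgals4 gave the most counts of them, and the part of such cells in the levels of Mcpt1 and Mcpt2 was not tested.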
